A study of Mus musculus with 18 samples.

Results

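The genes described here encode the proteins of the mitochondrial ribosome. They were chosen by name, as every gene whose symbol is Mrpl or Mrps followed by digits and an optional final letter, with the processed pseudogenes left out. The rule took 78 of the 53801 mouse genes listed, called MRP genes below, and used no measured value. By the known structures 51 of them belong to the large subunit and 26 to the small subunit. The remaining one, Mrps36, keeps a ribosomal name but encodes a subunit of the ketoglutarate dehydrogenase complex.

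The mitochondrial ribosome translates the few messenger RNAs of the mitochondrial genome, which encode core subunits of the respiratory chain and of the ATP synthase. Its ribosomal RNAs are made inside the mitochondrion, while all of its proteins are encoded in the nucleus, made by cytosolic ribosomes and imported. In beta cells the respiratory chain supplies the ATP that links glucose to insulin release.

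RNA came from isolated whole pancreatic islets, which hold the insulin-secreting beta cells among other endocrine cells, of 5-week-old animals given normal chow. These mice were heterozygous for the S64F variant of MafA (S64F/+), a beta-cell transcription factor that activates the insulin genes, or wild type (WT). There were 4 male S64F/+, 4 male WT, 5 female S64F/+ and 5 female WT libraries, and their values are given in the order of their replicate numbers. No label says that libraries of a group came from separate mice, so p-values measure the spread between these libraries, which may be partly technical.

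The libraries held 19317971 to 108659014 counts, and 18364 genes passed the filter on low counts. CPM here are counts scaled to the library's total multiplied by its TMM factor, the scaling of the edgeR fit. This factor was 1.07 to 1.14 in male S64F/+ and 0.88 to 1.03 in male WT libraries. It was 0.9 to 1.05 in female S64F/+ and 0.901 to 1.06 in female WT libraries. The islet hormones Ins1, Ins2, Gcg, Sst and Ppy were present in every library. Together they took 158000 to 186000 CPM in male S64F/+ islets and 231000 to 312000 in male WT islets. In females they took 190000 to 324000 CPM in S64F/+ islets and 191000 to 331000 in WT islets. In whole islets fewer cells of a type and less RNA per cell cannot be told apart.

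The MRP genes lie on 17 mouse chromosomes, with 11 of them on chromosome 11. In GENCODE M21, the annotation of the build used by the authors (GRCm38), 20 of the 78 (25.6%) share their start region with a protein-coding gene that runs the other way, its start within 1000 bases, against 6.8% of 21951 protein-coding genes. In one case both neighbours are MRP genes: the starts of Mrps11, a small-subunit protein, and Mrpl46, a large-subunit protein, lie 30 bases apart on chromosome 7. Mrps12, which sits at the decoding centre, starts 182 bases from the mitochondrial seryl-tRNA synthetase gene Sars2, and Mrpl43 starts 116 bases from Twnk, the mitochondrial DNA helicase gene.

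The promoters of 69 MRP genes could be read from the RefSeq promoter table (GRCm38.p6, 250 bases before to 50 after the start). They were searched on both strands for 3 motifs known from housekeeping and mitochondrial genes. The NRF1 core CGCATGCG was present in 10.1% of them against 2.07% of all 27025 genes of the table and 2.77% of the protein-coding ones. The ETS motif CCGGAAG was present in 37.7%, against 9.93% of all and 12.9% of protein-coding genes, and the YY1 motif AAGATGGC in 17.4%, against 3.19% and 3.57%. At least one of the motifs was found in 55.1% of the MRP promoters, against 14.1% of all and 17.8% of protein-coding genes. A match is a string of letters and not a measured binding site. The 6 promoters printed here, 5′ to 3′ with motif matches on either strand in capitals, show these classes beside the results. Mrpl17, higher in female S64F/+ islets, holds an ETS and an NRF1 match. Mrpl52 and Mrps33, which differed between female groups, hold ETS matches, and Mrpl41, with the smallest p of the set in females, holds no match. Mrps12 and Mrps11 start beside another gene of mitochondrial translation.
Mrpl17 (chr7:105811038-105811337, minus strand): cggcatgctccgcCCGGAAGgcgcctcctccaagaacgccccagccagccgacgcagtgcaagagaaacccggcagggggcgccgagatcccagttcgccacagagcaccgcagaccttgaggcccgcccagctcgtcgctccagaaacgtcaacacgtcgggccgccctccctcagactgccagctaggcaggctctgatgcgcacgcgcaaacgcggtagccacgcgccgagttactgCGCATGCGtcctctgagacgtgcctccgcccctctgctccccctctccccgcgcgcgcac
Mrpl52 (chr14:54426659-54426958, plus strand): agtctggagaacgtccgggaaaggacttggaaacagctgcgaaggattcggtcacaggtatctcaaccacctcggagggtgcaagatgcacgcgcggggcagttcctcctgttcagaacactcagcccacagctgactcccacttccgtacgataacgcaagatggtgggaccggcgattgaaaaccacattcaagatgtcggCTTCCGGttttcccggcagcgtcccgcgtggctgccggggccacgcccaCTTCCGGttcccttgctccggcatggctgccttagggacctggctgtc
Mrps33 (chr6:39810887-39811186, minus strand): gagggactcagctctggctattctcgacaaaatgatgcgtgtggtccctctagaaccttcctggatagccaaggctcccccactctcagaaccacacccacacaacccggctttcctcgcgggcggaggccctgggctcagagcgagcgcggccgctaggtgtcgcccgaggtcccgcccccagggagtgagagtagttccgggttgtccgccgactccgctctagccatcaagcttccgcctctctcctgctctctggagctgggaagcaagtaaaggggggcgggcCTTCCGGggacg
Mrpl41 (chr2:24975049-24975348, minus strand): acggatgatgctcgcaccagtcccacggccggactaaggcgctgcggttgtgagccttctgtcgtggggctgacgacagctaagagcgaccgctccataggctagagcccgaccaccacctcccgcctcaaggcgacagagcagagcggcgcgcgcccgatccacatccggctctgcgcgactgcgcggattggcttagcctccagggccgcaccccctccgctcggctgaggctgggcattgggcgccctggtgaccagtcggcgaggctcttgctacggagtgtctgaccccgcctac
Mrps12 (chr7:28741772-28742071, minus strand): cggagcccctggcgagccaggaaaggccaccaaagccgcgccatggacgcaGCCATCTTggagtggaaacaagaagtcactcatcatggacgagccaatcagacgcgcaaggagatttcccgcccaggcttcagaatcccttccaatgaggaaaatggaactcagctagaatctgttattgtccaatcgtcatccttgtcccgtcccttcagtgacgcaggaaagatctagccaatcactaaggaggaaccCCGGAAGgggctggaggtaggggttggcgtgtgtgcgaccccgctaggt
Mrps11 (chr7:78782881-78783180, plus strand): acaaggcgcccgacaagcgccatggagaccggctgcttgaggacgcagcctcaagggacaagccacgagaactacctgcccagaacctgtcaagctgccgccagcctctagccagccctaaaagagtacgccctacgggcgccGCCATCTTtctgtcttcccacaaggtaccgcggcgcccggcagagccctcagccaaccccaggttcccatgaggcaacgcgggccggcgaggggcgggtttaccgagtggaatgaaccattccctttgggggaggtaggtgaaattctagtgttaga

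Levels differed widely among the MRP genes. The median tested gene stood at 13.1 CPM per kilobase of its principal transcript, a level averaged over the 18 libraries. On this scale the tested genes spanned 1.88 to 68.3. Mrps21, a small-subunit protein, stood highest at 68.3 ± 15.4 CPM per kilobase (SD over 18 libraries), then Mrpl24 at 49.2 ± 5.24 and Mrps12 at 46.5 ± 8.04, and the last pair differed by less than the spread between libraries. At the low end Mrps25 stood at 1.88 ± 0.175, Mrpl35 at 2.62 ± 0.397 and Mrpl19 at 2.75 ± 0.267 CPM per kilobase, and the last pair again lay within the spread. The order depends on the length used. The deposited FPKM values divide by another length, which is 14327 bases for Mrpl15 against 4203 bases for its principal transcript. On the FPKM scale Mrpl34, Mrpl43 and Mrps21 had the highest means of the tested genes (21.4, 17.6 and 17.2 FPKM), and Mrps10, Mrpl15 and Mrps35 the lowest (0.926, 1.11 and 1.31 FPKM). The SD between replicates, pooled over the 4 groups, had a median of 0.159 on the log2 CPM scale over the tested MRP genes.

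**Figure D1:**
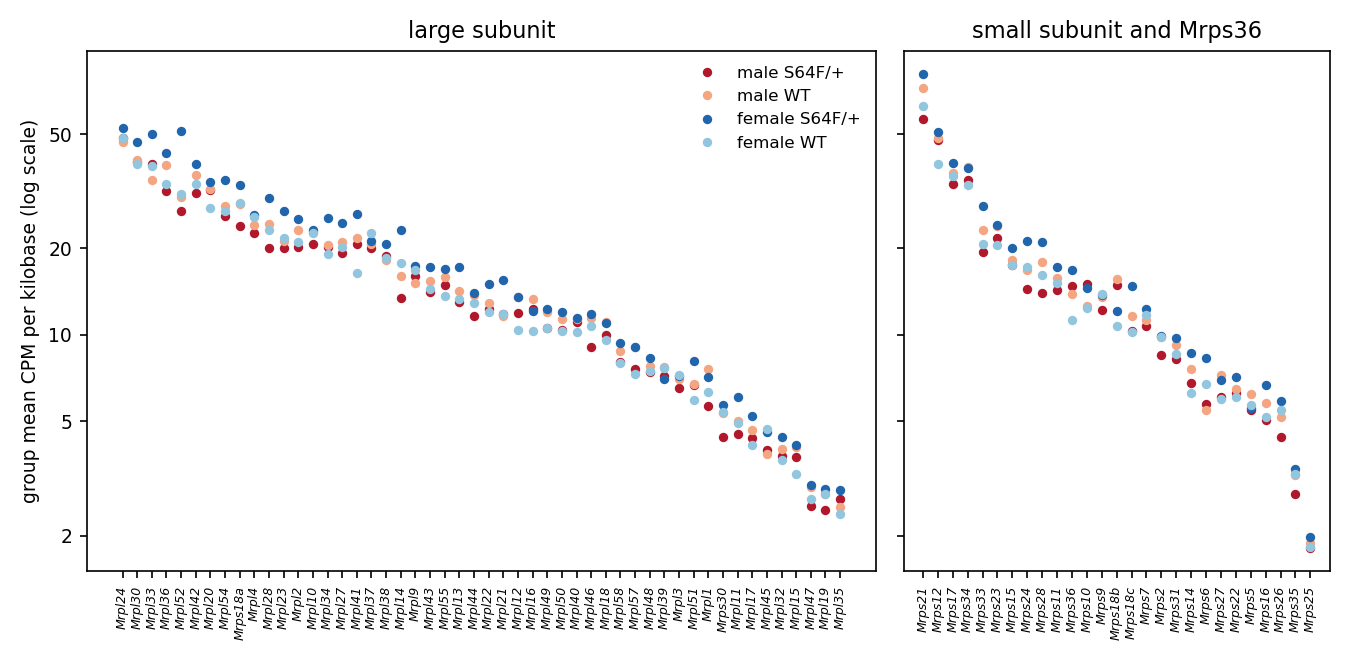
Mean level of each tested MRP gene in the 4 groups, in CPM per kilobase of principal transcript on a log axis, ordered by the mean within the large subunit (left) and within the small subunit with Mrps36 (right). Levels run from about 1.88 for Mrps25 to 68.3 for Mrps21 as means over all libraries.

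One MRP gene did not pass the filter on low counts. Mrpl53, of the large subunit, averaged 0.0218 CPM per kilobase, and 100% of its transcript is shared with exons of Gm42688 on the same strand, so that its reads could not be assigned to it without doubt. A further uncertainty touches genes that overlap another gene on the opposite strand, because the sources used here do not say whether counting used strand. Over 10% of the transcript is shared in this way in 17 MRP genes, among them Mrps25 (75.6%), Mrps34 (62.7%), Mrps18b (59.1%) and Mrpl24 (53.3%).

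The comparison of S64F/+ with WT islets in males asked what the variant changes in that sex, and 1 MRP gene was called in the fit over all libraries. At an adjusted p under 0.05 (edgeR quasi-likelihood test, Benjamini-Hochberg over all tested genes) none of 77 was higher, against 15.4% of all genes tested. One, Mrpl1, was lower, against 12.3% of all genes. At an unadjusted p under 0.05 the counts were 1 higher and 10 lower, against 20% and 18% of all genes. DESeq2 also called 0 higher and 1 lower, against 17.3% and 12.6% of all genes. The median log2 fold change of the MRP genes was -0.13, against -0.03 over all genes, and 67 of 77 values were negative. The median standard error of a single gene's value was 0.12. Its sign depends on the scaling: with library sizes alone the median was 0.10, when that over all genes was 0.19, and 5 MRP genes were called higher (23.1% of all genes) and 0 lower (3.63%). A fit to the male libraries alone called 6 lower and 1 higher, against 16.7% and 19.2% of all genes. With each library's trend over transcript length taken into the model as an offset, a setting added after the data were seen, the male median was -0.03, against 0.05 over all genes.

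Markers of other cells moved with the genotype in males. Of the 10 stellate and fibroblast markers 9 were higher, and together they summed to 1610 to 2450 CPM in male S64F/+ islets against 244 to 566 in male WT islets. The 8 endothelial markers, 6 of them higher, summed to 871 to 996 CPM in male S64F/+ islets against 455 to 632 in male WT islets, and the 8 macrophage markers, again 6 higher, to 83.6 to 106 CPM against 33.7 to 39.2. None of these markers was at 0 in male S64F/+ islets, and 1 macrophage marker was at 0 in a male WT library. The 7 ductal markers, 4 of them higher, summed to 690 to 811 CPM in male S64F/+ islets against 455 to 473 in male WT islets, and the 6 Schwann cell markers, 4 higher, to 63.1 to 70.9 CPM against 22.2 to 28.8. The 6 acinar markers, none called, summed to 3470 to 14700 CPM in male S64F/+ islets against 2360 to 23400 in male WT islets. Of the hormones, Ins1 and Ins2 were lower in males (-1.16 ± 0.21 and -0.84 ± 0.21, edgeR adjusted p = 0.00038 and 0.00611), and Gcg, Sst and Ppy did not pass the test. With the length offset 3 of the 5 hormones were called higher and 2 lower in males, so these non-calls depend on the setting. The part of these markers and hormones in the male values was not tested.

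Mrpl1, which forms the stalk at the exit site of the large subunit, stood at 20.5, 18.5, 19.9 and 19 CPM in male S64F/+ islets, against 22.6, 23.4, 30.1 and 28.3 CPM in male WT islets. All male S64F/+ libraries lay below all male WT libraries. Its log2 fold change was -0.42 ± 0.13 (SE), with an edgeR adjusted p of 0.0217. Leaving out male WT 3, male WT 4, male S64F/+ 2 or male S64F/+ 4 each ended the call, with an adjusted p of up to 0.0797, and so did library-size scaling (-0.20) and the length offset (-0.34, edgeR adjusted p = 0.0841). In females Mrpl1 did not pass the test (0.17 ± 0.12, edgeR adjusted p = 0.331).

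For 13 MRP genes, Mrpl1 among them, every male S64F/+ library lay below every male WT library (16.9% of the tested MRP genes, against 17.3% of all genes). The largest negative values after Mrpl1 belonged to the small-subunit genes Mrps21 and Mrps28. Mrps21 stood at 22.8, 22.4, 22 and 24 CPM in male S64F/+ islets, against 26.8, 24.1, 31.2 and 34.7 CPM in male WT islets. The ranges were apart by the narrow gap to male WT 2, and the difference did not pass the test (-0.36 ± 0.17, edgeR adjusted p = 0.124), whereas with the length offset it was -0.22 with an edgeR adjusted p of 0.0257. Mrps28 overlapped between the groups (-0.36 ± 0.20, edgeR adjusted p = 0.191).

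In the other direction Mrps10, a protein of the head of the small subunit, was the only MRP gene whose male S64F/+ libraries all lay above male WT, against 17.8% of all genes. It stood at 15.7, 16.6, 14.5 and 14.6 CPM in male S64F/+ islets, against 13.8, 12.6, 12.4 and 12.4 CPM in male WT islets (log2 fold change 0.26 ± 0.11, edgeR adjusted p = 0.0814). With the length offset it was 0.38, with an edgeR adjusted p of 0.0187. Next came Mrpl33 (0.18 ± 0.17, edgeR adjusted p = 0.457) and Mrpl35 (0.09 ± 0.14, edgeR adjusted p = 0.675), both of the large subunit, and neither passed the test.

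In females 17 of the 77 tested MRP genes (22.1%) rose in S64F/+ islets, against 10.2% of all genes tested. None was lower at the adjusted or the unadjusted threshold, against 11.0% and 17.3% of all genes. DESeq2 called 23 higher and 0 lower, against 12.2% of all genes in each direction. At an unadjusted p under 0.05 the count was 46 higher (59.7%, against 16.8% of all genes). The median log2 fold change was 0.23, against 0.02 over all genes, and 71 of 77 values were positive. Both subunits were represented, with 12 of 50 large-subunit genes and 4 of 26 small-subunit genes called, beside Mrps36, and the subunit medians were 0.26 and 0.21.

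Over all tested genes, female libraries with the same replicate number deviated together weakly (correlations 0.11 to 0.418). No label states this pairing, the main test does not use it, and without correlations of differently numbered libraries it has no baseline. The median of the MRP genes was higher in the S64F/+ library of all 5 such pairs, by 0.04, 0.26, 0.51, 0.12 and 0.29 on the log2 scale. Compared without regard to number, the groups overlapped. No more than 3 MRP genes (3.90%, against 5.28% of all genes) had every female S64F/+ library above every female WT library, namely Mrpl15, Mrpl16 and Mrps33, and none had the reverse (6.36% of all genes). The median of the MRP genes, as the deviation of log2 CPM from each gene's mean, was -0.07, 0.04, 0.35, 0.23 and 0.23 in female S64F/+ islets, against -0.11, -0.22, -0.16, 0.11 and -0.06 in female WT islets. Female S64F/+ 3, 4 and 5 lay above all WT libraries, while female S64F/+ 1 lay below female WT 4 and 5. Female S64F/+ 3 held the highest value of its group for 51 of the 77 genes (66.2%, against 29.8% of all genes) and female S64F/+ 1 the lowest for 54 (70.1%, against 23.2%). Among the WT females library 4 was highest for 59 (76.6%, against 23.4%).

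**Figure D2:**
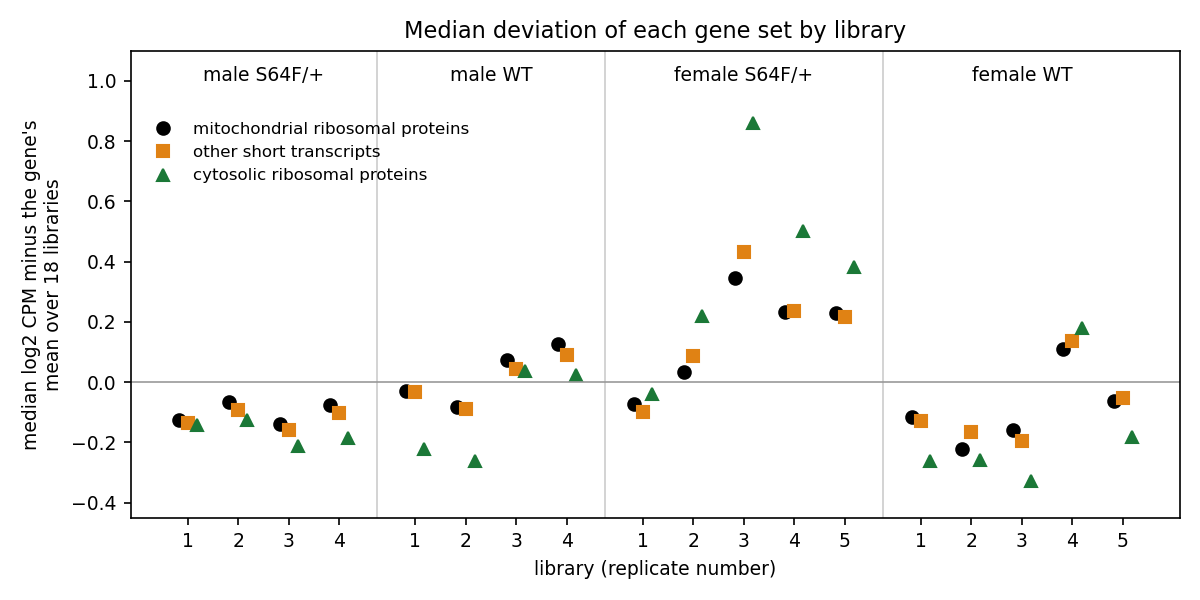
Median deviation of log2 CPM from the gene's mean over 18 libraries, by library, for the 77 tested MRP genes (circles), 655 other genes with principal transcripts under 1000 bases (squares) and 75 cytosolic ribosomal protein genes (triangles). The circles are highest in female S64F/+ 3, 4 and 5 (0.35, 0.23 and 0.23), and the squares and triangles are highest in the same libraries.

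The same libraries also stood apart in genes outside the set. The 655 other genes with short principal transcripts, under 1000 bases, had medians of -0.10, 0.09, 0.43, 0.24 and 0.22 in female S64F/+ islets, against -0.13, -0.16, -0.20, 0.14 and -0.05 in female WT islets. The 75 tested genes of cytosolic ribosomal proteins had -0.04, 0.22, 0.86, 0.50 and 0.38 in female S64F/+ islets, against -0.26, -0.26, -0.33, 0.18 and -0.18 in female WT islets. In both sets female S64F/+ 3 was highest, 1 was lowest of its group, and female WT 4 was highest of its group, as for the MRP genes. Macrophage markers, 5 of 8 higher in females, summed to 48.8 to 117 CPM in female S64F/+ islets against 29.8 to 45.4 in female WT islets, where 1 was at 0 in a library. Stellate markers, 1 of 10 higher, summed to 301 to 1080 CPM in female S64F/+ islets against 319 to 881 in female WT islets, and endothelial ones, none of 8 higher, to 563 to 765 CPM against 530 to 729. Ductal markers, 3 of 7 higher, summed to 509 to 581 CPM in female S64F/+ islets against 440 to 499 in female WT islets, and Schwann cell markers, 1 of 6 higher, to 42.4 to 88.3 CPM against 22.7 to 39.1. Acinar markers, none of 6 called, summed to 13100 to 30000 CPM in female S64F/+ islets against 9550 to 36300 in female WT islets.

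The hormones of non-beta endocrine cells were also higher in females. Gcg averaged 69800 ± 7990 CPM in female S64F/+ islets against 34900 ± 3100 CPM in female WT islets (SD, n = 5 each; 1.00 ± 0.13, edgeR adjusted p = 3.34e-05). The log2 fold changes of Sst and Ppy were 1.14 ± 0.19 and 1.01 ± 0.33 (edgeR adjusted p = 0.000245 and 0.0382), and Ins1 and Ins2 did not pass the test. With the length offset 2 of the 5 hormones were called higher and 2 lower in females. The part of these differences in the female calls was not tested.

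The female counts varied with the libraries kept. Female S64F/+ 3, 4 and 5 held the highest MRP medians of their group, so calls were bound to fall without them. A fit without them was therefore no test of the female difference. Without female S64F/+ 3, 4 and 5, an alternative chosen after the data were seen that leaves 2 female S64F/+ libraries, none of the MRP genes was called higher (3 at an unadjusted p under 0.05, and 3.74% of all genes at the adjusted threshold), and the median was 0.05. Leaving out 1 library gave 6, 7 and 11 calls without female S64F/+ 3, 4 and 5, and 39 without female S64F/+ 1. It gave 7, 8, 9 and 36 without female WT 1, 2, 3 and 4. The shares of all genes in these leave-outs are not given, so a swing of the MRP genes cannot be told from one of all genes. A fit to the female libraries alone called 5 (6.49%), against 7.17% of all genes.

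The female difference also followed transcript length. Among other genes with a mean log2 CPM over 3, the median log2 fold change was 0.37 for transcripts under 700 bases, 0.26 from 700 to 1000, 0.15 from 1000 to 1500, 0.05 from 1500 to 2500, -0.04 from 2500 to 4000 and -0.14 above. The MRP genes of those bins (11, 14, 22, 10, 12 and 8 genes) had medians of 0.37, 0.30, 0.21, 0.06, 0.27 and 0.11. The 11 shortest thus lay level with other genes of their length, and the 12 genes from 2500 to 4000 bases lay above them. Cytosolic ribosomal protein genes, with a female median of 0.57, were not removed from the other genes of these bins or of the offset. Many MRP transcripts are short, with 25 of 77 under 1000 bases. After the length offset, read from other genes, 11 MRP genes were called higher in females against 10.1% of all genes, 8 of them among the 17, and the median was 0.07.

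**Figure D3:**
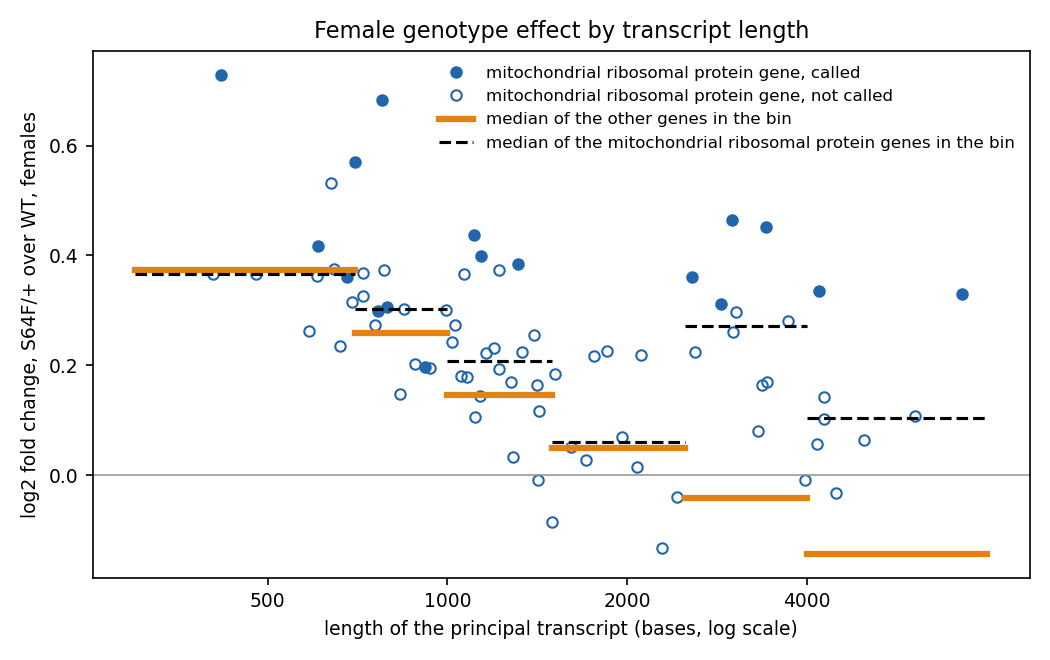
Log2 fold change of S64F/+ over WT in females for the 77 tested MRP genes against the length of the principal transcript (log axis), with filled points for adjusted p under 0.05. Thick orange lines give the median of the other genes in each length bin and dashed black lines that of the MRP genes, which lie level under 700 bases (0.37 each) and apart from 2500 to 4000 bases (0.27 against -0.04).

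Among the large-subunit proteins without a bacterial counterpart, Mrpl41 had the smallest p. It stood at 15.2, 19, 24.1, 21.3 and 22.2 CPM in female S64F/+ islets, against 11.8, 10.6, 12.8, 15.8 and 12.4 CPM in female WT islets. Only female S64F/+ 1 lay within the WT range. The log2 fold change was 0.68 ± 0.13 (edgeR adjusted p = 0.00129), and with the length offset it was 0.41 (edgeR adjusted p = 0.00276).

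Mrpl52 of the same class had the largest female value of the set, 0.73 ± 0.20 (edgeR adjusted p = 0.0152). It stood at 12.5, 17.3, 31.3, 24.4 and 21.9 CPM in female S64F/+ islets, against 12, 11.7, 8.94, 17.9 and 14.1 CPM in female WT islets. Female S64F/+ 3, 4 and 5 lay above every WT library and the other two within the WT range. Without female S64F/+ 3 its adjusted p was 0.0507, and with the length offset the value was 0.30 (edgeR adjusted p = 0.0558). Mrpl51, the third of this class among the named genes, stood at 27.8 ± 5.36 CPM in female S64F/+ islets against 20.4 ± 3.23 CPM in female WT islets (SD, n = 5 each). Its log2 fold change was 0.45 ± 0.12 (edgeR adjusted p = 0.0131), and 0.52 with the length offset (edgeR adjusted p = 0.00673). Its principal transcript is long, 3427 bases.

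Of the large-subunit proteins with a bacterial counterpart, 8 of 30 rose in females. Mrpl15, which takes part in the assembly of the large subunit in bacteria, stood at 15.8, 15.1, 21.1, 16.9 and 18 CPM in female S64F/+ islets, against 14.6, 12.5, 13.7, 14.3 and 13.9 CPM in female WT islets. The groups did not overlap, and the log2 fold change was 0.34 ± 0.09 (edgeR adjusted p = 0.0142). Its principal transcript is long, 4203 bases, and the value with the length offset was 0.44 (edgeR adjusted p = 0.00456). In males it stood at 16.7, 15.9, 15.3 and 15.2 CPM in S64F/+ islets against 19.2, 15.5, 15.4 and 18.3 CPM in WT islets, with overlapping ranges (-0.11 ± 0.10, edgeR adjusted p = 0.455).

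Mrpl21 stood at 14.2, 17.4, 19.1, 19.3 and 18.5 CPM in female S64F/+ islets, against 13.3, 12.4, 12, 15.8 and 13.5 CPM in female WT islets. It rose by 0.40 ± 0.10 on the log2 scale (edgeR adjusted p = 0.00701), with female S64F/+ 1 within the WT range. Mrpl12, which recruits translation factors to the ribosome, averaged 17.8 ± 2.93 CPM in female S64F/+ islets against 13.7 ± 2.06 CPM in female WT islets (0.39 ± 0.12, edgeR adjusted p = 0.0283), and with the length offset its value was 0.25 (edgeR adjusted p = 0.0521). Mrpl34, Mrpl20 and Mrpl36 had log2 fold changes of 0.42, 0.30 and 0.36 with edgeR adjusted p of 0.0192, 0.0264 and 0.0309. Their transcripts of 607, 764 and 680 bases are short, and with the length offset the values were 0.08, 0.02 and 0.07 and none passed the test. With the replicate number as a block Mrpl20 no longer passed either (0.29).

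Mrps33, a small-subunit protein without a bacterial counterpart, stood at 26.6, 32.5, 39.8, 30.1 and 26.1 CPM in female S64F/+ islets, against 23, 22.9, 22.9, 25 and 20.5 CPM in female WT islets. All S64F/+ libraries lay above all WT libraries, and the log2 fold change was 0.44 ± 0.11 (edgeR adjusted p = 0.00982; 0.0742 with the length offset). Mrps16, which has a bacterial counterpart, averaged 17.2 ± 2.53 CPM in female S64F/+ islets against 13.4 ± 2.14 CPM in female WT islets (0.36 ± 0.11, edgeR adjusted p = 0.0302). Mrps34 had the smallest called difference, 0.20 ± 0.07 (edgeR adjusted p = 0.0382). With the replicate number as a block it no longer passed (0.19), with the length offset its value was -0.03, and its reads overlap Mapk8ip3 on the other strand.

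Mrps36, the dehydrogenase subunit, stood at 9.36, 10.9, 15.2, 11.9 and 11.5 CPM in female S64F/+ islets, against 8.15, 6.8, 8.66, 9.49 and 6.49 CPM in female WT islets. Only female S64F/+ 1 lay within the WT range, and the log2 fold change was 0.57 ± 0.13 (edgeR adjusted p = 0.00368). With the length offset it was 0.27 (edgeR adjusted p = 0.0589). Reads of processed pseudogenes of Mrps36 were few, with at most 7 counts of one in a library.

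The other called genes, Mrps14, Mrpl17, Mrpl55 and Mrpl57, had log2 fold changes of 0.31 to 0.46 with edgeR adjusted p of 0.0327 to 0.0478. Mrpl55 no longer passed with the length offset (0.04, edgeR adjusted p = 0.786), and the others had values of 0.35 to 0.54 and passed. At the other end, Mrpl39, Mrpl37 and Mrpl45 had the most negative female values, -0.13, -0.08 and -0.04, and none passed the test. Mrpl45, which ties the ribosome to the inner membrane, stood at 10.1, 11.5, 11.5, 10.7 and 11.9 CPM in female S64F/+ islets, against 10.1, 10.2, 11.4, 12.7 and 12.9 CPM in female WT islets. Its groups overlapped throughout, and female S64F/+ 3 did not stand out there.

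**Figure D4:**
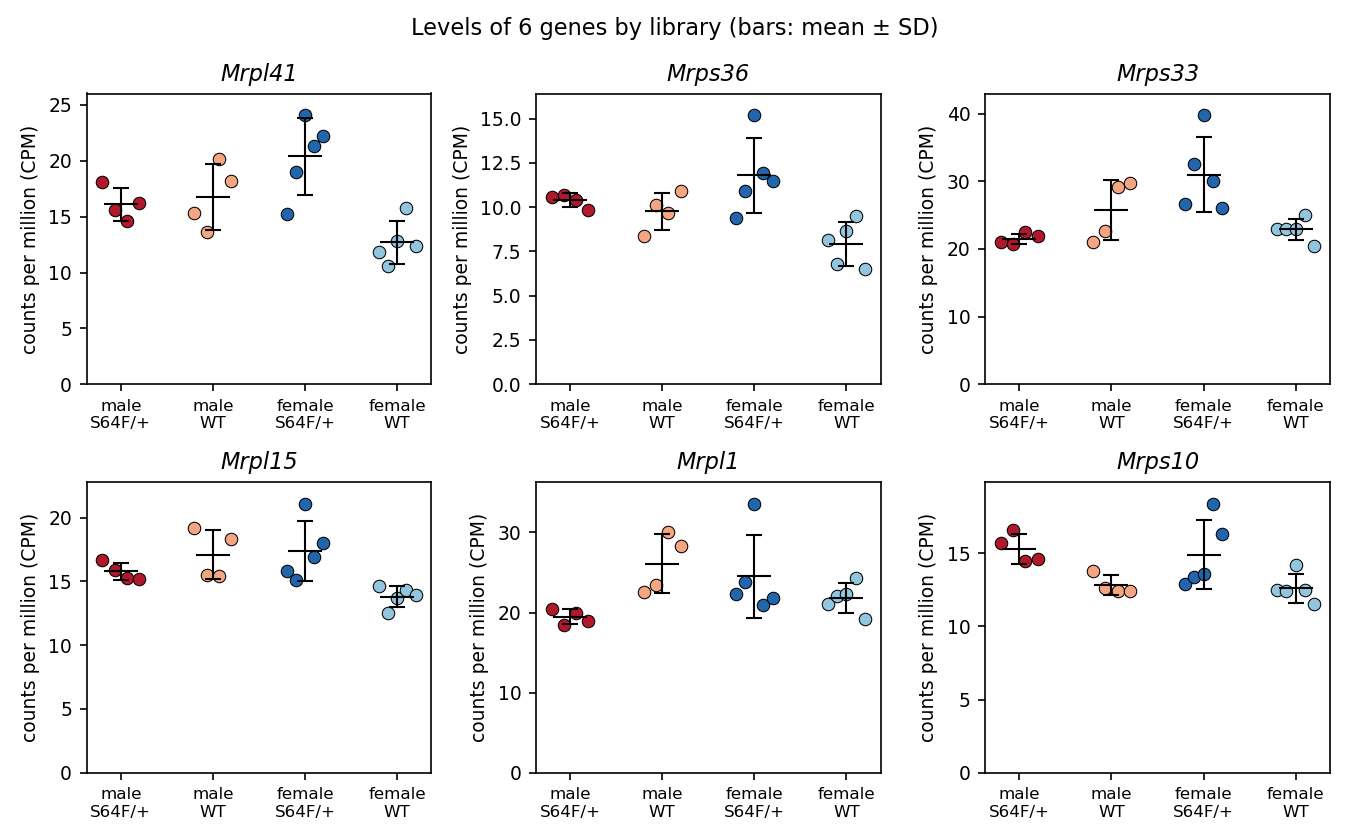
CPM of 6 genes in every library, with the group mean ± SD, for male S64F/+, male WT, female S64F/+ and female WT islets (n = 4, 4, 5 and 5) on axes that start at 0. Mrps33 and Mrpl15 are apart between the female groups, Mrpl1 and Mrps10 between the male groups, and Mrpl41 and Mrps36 overlap in both sexes.

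Averaged over the sexes, 4 MRP genes were higher in S64F/+ islets (5.19%, against 18.2% of all genes) and none was lower (16.7% of all genes; 1 at an unadjusted p under 0.05 and 0 by DESeq2). They were Mrps10 (0.25 ± 0.07, edgeR adjusted p = 0.0112), Mrps36 (0.33 ± 0.10, edgeR adjusted p = 0.0114), Mrpl41 (0.31 ± 0.10, edgeR adjusted p = 0.021) and Mrpl21 (0.22 ± 0.07, edgeR adjusted p = 0.0289). For Mrps10 the female value, 0.24 ± 0.10, stood beside 0.26 ± 0.11 in males, and the difference between the sexes was 0.02 ± 0.15. In females it stood at 12.9, 13.4, 13.6, 18.4 and 16.3 CPM in S64F/+ islets against 12.5, 12.4, 14.2, 12.5 and 11.5 CPM in WT islets. The female ranges overlapped, with female S64F/+ 4 and 5 highest, and with the length offset the female value was 0.03. The count was 2 without male WT 2 and 8 without female S64F/+ 1, and 0 without female S64F/+ 3, 4 and 5 (15.5% of all genes). With library-size scaling it was 24, against 24.7% of all genes.

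The genotype effect was set against the other sex by a test of the difference itself. It was lower in males than in females for 4 MRP genes (5.19%, against 1.60% of all genes) and higher for none (2.87% of all genes; 0 at an unadjusted p under 0.05 and 0 by DESeq2). The median difference was -0.36, against 0.01 over all genes, 72 of 77 values were negative, and 49 were lower at an unadjusted p under 0.05 (63.6%, against 12% of all genes). The 4 were Mrps33 (-0.69 ± 0.17, edgeR adjusted p = 0.0308), Mrpl36 (-0.66 ± 0.17, edgeR adjusted p = 0.039), Mrpl41 (-0.74 ± 0.20, edgeR adjusted p = 0.0432) and Mrps34 (-0.35 ± 0.10, edgeR adjusted p = 0.0485).

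Mrps33 stood at 21, 20.8, 22.5 and 21.9 CPM in male S64F/+ islets against 21.1, 22.7, 29.1 and 29.8 CPM in male WT islets. Its male value was negative and did not pass the test (-0.25 ± 0.13, edgeR adjusted p = 0.15), while the female libraries were apart the other way. Mrpl36 stood at 21, 19.7, 22.6 and 22.8 CPM in male S64F/+ islets against 23.2, 24.7, 29.6 and 28.8 CPM in male WT islets. In females it stood at 24.9, 25.4, 32.2, 32.1 and 32.1 CPM in S64F/+ islets against 21.6, 20.8, 18.2, 27.8 and 25.8 CPM in WT islets. Its male S64F/+ values all lay below male WT, and female S64F/+ 3, 4 and 5 lay above female WT. Mrpl41 stood at 18.1, 15.6, 14.6 and 16.2 CPM in male S64F/+ islets against 15.3, 13.6, 20.2 and 18.2 CPM in male WT islets, which overlapped.

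Mrps34 stood at 31, 32.5, 30.7 and 32.8 CPM in male S64F/+ islets against 35.7, 32.6, 35.1 and 37.9 CPM in male WT islets. In females it stood at 31.2, 33.8, 39.3, 34.7 and 35.6 CPM in S64F/+ islets against 30.1, 30.5, 31, 32.1 and 28.6 CPM in WT islets. Male S64F/+ 4 lay within the male WT range and female S64F/+ 1 within the female WT range.

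These 4 calls were close to the threshold, and with the replicate number as a block Mrps34 no longer passed (-0.35). Leaving out 1 library gave 0 calls without male WT 3, male WT 4, female WT 2 or any one male S64F/+ library, 1 without female WT 1, 3 or 5 or female S64F/+ 3, 4 or 5, 2 without male WT 1, 9 without male WT 2, 20 without female WT 4 and 26 without female S64F/+ 1. None was called without female S64F/+ 3, 4 and 5 (0.0157% of all genes), with the length offset (0.474%) or with library-size scaling (0.163%). With shares this low, 0 calls do not set the MRP genes apart from all genes. DESeq2 called 14 (4.47% of all genes) and the replicate block 6 (1.60%). With the length offset the median difference was -0.14, and library-size scaling moved the median of all genes to 0.25 and that of the MRP genes to -0.11.

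**Figure D5:**
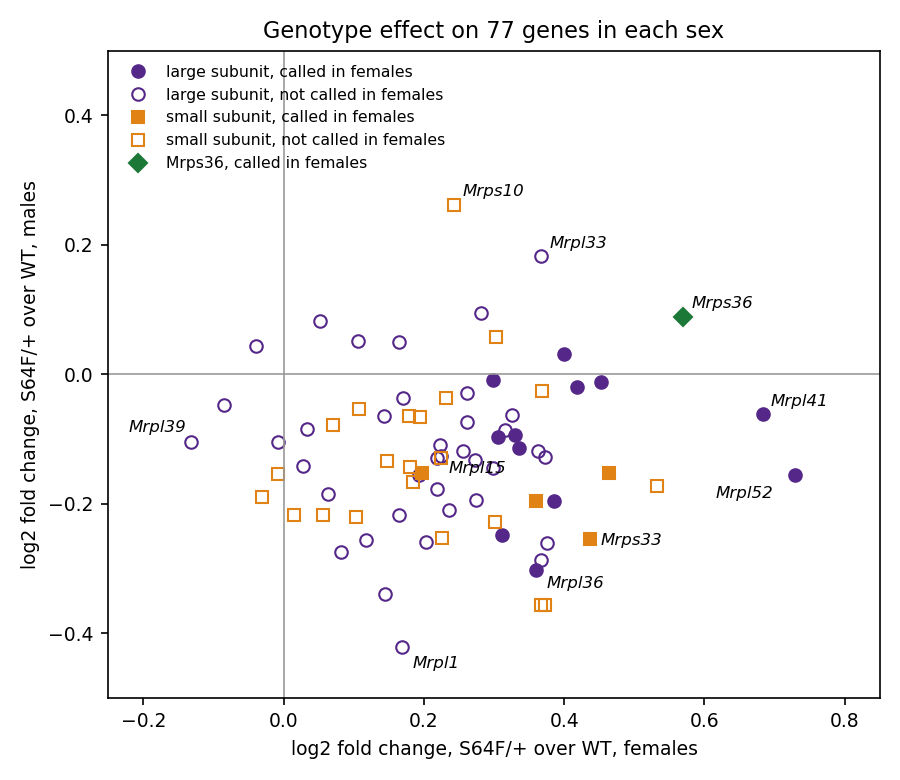
Log2 fold change of S64F/+ over WT in males (vertical) against females (horizontal) for the 77 tested MRP genes, with shape and colour for the subunit and filled points for an adjusted p under 0.05 in females. Most points lie right of 0 and below 0 (71 positive in females, 67 negative in males), and Mrps10, Mrpl33 and Mrps36 are among the 10 genes above 0 in males.

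Male S64F/+ islets were then set against female S64F/+ islets. In males 19 MRP genes were lower (24.7%, against 8.12% of all genes) and 1 was higher (against 8.00%), and for 20 every male library lay below every female one (26.0%, against 8.27% of all genes) and for none above (7.91%). At an unadjusted p under 0.05 the counts were 44 lower and 1 higher, against 16.8% and 16.2% of all genes. The median was -0.25, against -0.01 over all genes. The smallest p belonged to Mrps33 (-0.52 ± 0.12, edgeR adjusted p = 0.00908) and to Mrps18a, a large-subunit protein despite its name, which stood at 22.4, 20.3, 19.6 and 22 CPM in male S64F/+ islets against 23.8, 27.2, 35.8, 28.9 and 31.6 CPM in female S64F/+ islets. Its groups were apart (-0.48 ± 0.11, edgeR adjusted p = 0.00923).

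Mrpl52 had a value of -0.92 ± 0.22 (edgeR adjusted p = 0.0106), Mrpl28 one of -0.59 ± 0.15 (edgeR adjusted p = 0.0166) and Mrpl21 one of -0.39 ± 0.10 (edgeR adjusted p = 0.018). Mrpl28 stood at 20.4, 21.5, 20.8 and 22.5 CPM in male S64F/+ islets against 22.6, 28.3, 41.8, 30.9 and 36.6 CPM in female S64F/+ islets, and the groups were apart by the narrow gap to female S64F/+ 1. The count of genes lower in males was 6, 9, 6 and 8 without male S64F/+ 1, 2, 3 and 4, and 34, 7, 8 and 6 without female S64F/+ 1, 3, 4 and 5. It was 7 with the length offset (3.87% of all genes). Without female S64F/+ 3, 4 and 5 it was 0 (0.403%), with 2 at an unadjusted p under 0.05.

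Few MRP genes differed between male WT and female WT islets. In males 2 were higher (2.60%, against 1.73% of all genes) and none lower (0.637% of all genes; 0 by DESeq2), and the median was 0.10 against -0.04 over all genes. At an unadjusted p under 0.05 12 were higher (8.84% of all genes) and 1 lower (9.10%), and the ranges were apart upwards for 5 (4.21% of all genes) and downwards for 1 (3.25%). Mrps18b, a small-subunit protein, stood at 19.2, 16.1, 15.8 and 16.1 CPM in male WT islets against 11.3, 10.4, 13.2, 11.8 and 11.1 CPM in female WT islets. The groups were apart (0.54 ± 0.10, edgeR adjusted p = 0.00936). It was also the gene higher in male S64F/+ islets, with 16, 17.2, 13.6 and 17.4 CPM against 13.4, 12.8, 12, 12.5 and 14.5 CPM in female S64F/+ islets, although those ranges overlapped (0.30 ± 0.10, edgeR adjusted p = 0.0433, lost in 11 of 18 leave-outs of 1 library). Of its transcript 59.1% is shared with Gm16279 on the other strand.

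The second gene, Mrpl16, which lies near the catalytic centre, stood at 14.8, 13.1, 17.4 and 16.6 CPM in male WT islets against 12.1, 10.6, 12.3, 12.6 and 12.5 CPM in female WT islets. The groups were apart, and the value was 0.37 ± 0.09 (edgeR adjusted p = 0.0394), a call that leaving out any of 10 libraries ended, with adjusted p up to 0.161 without male WT 4.

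Other genes of mitochondrial translation were described by the same fit. The ribosomal RNAs mt-Rnr1 and mt-Rnr2, made inside the mitochondrion, were both higher in female S64F/+ islets. The smaller one, mt-Rnr1, stood at 106, 147, 243, 178 and 163 CPM in female S64F/+ islets against 93.5, 77.6, 81.7, 120 and 80.6 CPM in female WT islets (0.88 ± 0.19, edgeR adjusted p = 0.00258). Its highest library was again female S64F/+ 3, and the value of mt-Rnr2 was 0.67 ± 0.19 (edgeR adjusted p = 0.0167). Neither was called in males. Of the 13 protein-coding genes of the mitochondrial genome, 1 was higher in females (mt-Nd1, 0.43 ± 0.13, edgeR adjusted p = 0.0194) and 1 lower in males (mt-Co1, -0.51 ± 0.19, edgeR adjusted p = 0.0458), and the list's medians were 0.39 in females and -0.27 in males. Reads assigned to these genes were uneven, and how far they follow RNA levels was not tested. In male WT islets mt-Co1 averaged 7140 CPM, mt-Co2 3.48 CPM and mt-Atp8 0.501 CPM, and mt-Rnr1 and mt-Rnr2 averaged 113 and 608 CPM. None of the 13 was called in either sex with the length offset, and the medians were 0.15 in females and -0.14 in males. Both ribosomal RNAs were still called in females.

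A list of 6 genes with other symbols held mitoribosomal proteins and the membrane insertase gene Oxa1l. Of these Chchd1 rose in females, with 22.1 ± 4.45 CPM in S64F/+ against 16.1 ± 2.28 CPM in WT islets (SD, n = 5 each; 0.45 ± 0.12, edgeR adjusted p = 0.0115). Gadd45gip1 fell in males, with 23.2, 23.3, 21.6 and 23 CPM in S64F/+ islets against 26.9, 29.7, 33.8 and 42.5 CPM in WT islets. These male groups were apart (-0.55 ± 0.14, edgeR adjusted p = 0.0054), and the medians of the 6 genes were -0.08 in males and 0.02 in females. Chchd1 was no longer called in females with the length offset, and 1 of the 6 genes was lower in males.

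The 30 genes of ribosome assembly and rRNA modification had 7 lower in males, among them Fastkd2 (-0.36 ± 0.09, edgeR adjusted p = 0.00597) and Mrm2, a methyltransferase of the large ribosomal RNA (-0.50 ± 0.15, edgeR adjusted p = 0.0174), with a male median of -0.19. None of the 30 was called in females, where the median was 0.07. Of the 30, 2 were lower with the length offset in males (median -0.09) and 1 in females. Of 14 translation factors and regulators of mitochondrial messengers, Mtif3, an initiation factor, was lower in males and Slirp and Lrpprc, partners in messenger stability, were higher in females, with list medians of -0.17 in males and -0.02 in females. Of the 14, 1 was lower in males with the length offset, and in females 2 were higher and 1 lower. Of 17 mitochondrial aminoacyl-tRNA synthetases 4 were lower in males, among them Rars2 (-0.41 ± 0.07, edgeR adjusted p = 0.00038), and 1, Iars2, was lower in females, with medians of -0.07 in males and -0.02 in females. Of the 17, 3 were lower in males with the length offset, and in females 1 was higher and none lower. None of 9 genes of mitochondrial DNA transcription and copying was called in either sex (medians -0.06 in males and -0.03 in females). The seryl-tRNA synthetase gene Sars2, which shares its start region with Mrps12, had values of 0.04 ± 0.14 in males and 0.02 ± 0.13 in females. Mrps12 itself had -0.03 ± 0.15 in males and 0.37 ± 0.13 in females, and none of these 4 values passed the threshold.

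Of 9 regulators of mitochondrial biogenesis, the coactivator gene Ppargc1a rose in both sexes and Nrf1, whose protein binds the motif named above, fell in both. Ppargc1a stood at 3.52, 3.12, 7.97 and 6.77 CPM in male S64F/+ islets against 1.82, 4.02, 1.53 and 1.48 CPM in male WT islets (1.26 ± 0.43, edgeR adjusted p = 0.0372). In females its log2 fold change was 1.59 ± 0.39 (edgeR adjusted p = 0.00744). Nrf1 stood at 21.6, 21, 21.1, 20 and 21.7 CPM in female S64F/+ islets against 29.3, 27, 26.5, 26.8 and 26.4 CPM in female WT islets, with the groups apart (-0.37 ± 0.08, edgeR adjusted p = 0.00202). In males its value was -0.29 ± 0.08 (edgeR adjusted p = 0.0159), and with the length offset none of the 9 was lower in males. Ppargc1b, a relative of Ppargc1a, was lower in females (-0.67 ± 0.19, edgeR adjusted p = 0.0191).

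The genes of cytosolic ribosomal proteins, the counterpart outside the mitochondrion, were set beside the MRP genes. Of 75 tested, 67 were higher in female S64F/+ islets and none was called in males, and their female median was 0.57, against 0.23 for the MRP genes. With the length offset, read in part from these genes, 45 of the 75 were called higher in females. Their median was then 0.26, while the MRP genes had 11 of 77 called and a median of 0.07.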

How the data were processed

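RNA sequencing libraries of mouse islets were compared by genotype within each sex, by genotype averaged over the sexes, by the difference of the genotype effects, and by sex within each genotype. Per the labels' protocols, RNA was purified on columns, had an integrity number above 8.0, and was sequenced as pairs of 150 nucleotides. The deposited tables hold, for each gene and library, whole-number read counts made by the authors, and FPKM values that the authors derived from those counts with one length per gene. STAR, featureCounts, FastQC, MultiQC, DESeq2 and the build GRCm38 are named in the submitters' processing notes, without versions, and whether counting used strand is not given in the sources used here. Spike-in rows (99 features, no counts) were left out.

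Counts were tested across all 18364 genes that passed filterByExpr (minimum count 10, total 15) with edgeR 4.0.16 (R 4.3.3, limma 3.58.1) in its quasi-likelihood test, with TMM scaling and 1 fit over the 18 libraries, and p-values were adjusted by Benjamini-Hochberg at 0.05. For CPM, counts were divided by TMM-scaled library sizes, with a prior count of 2 for log2 CPM. The common biological coefficient of variation was 24.4%. Errors after ± are standard errors beside log2 fold changes and SDs beside levels. Replicates correlated at 0.96 to 0.988 and differed beyond sampling noise. DESeq2 1.42.0, other scalings and filters, fits to the groups compared, a replicate block and leaving out libraries were the alternatives. The length offset adds each library's trend of log2 CPM over transcript length to the edgeR fit. The offset was read from genes other than the MRP genes, with cytosolic ribosomal protein genes kept in. Its use and the joint removal of 3 libraries were chosen after the data were seen. The 3 libraries were those with the highest MRP medians of their group. Calls lost without them, in any comparison, are thus no independent test. The fit was also run on simulated counts of independent genes, with a fixed spread and changes only in male S64F/+ libraries. That run held no trend over transcript length and does not test the calls given here.

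Female libraries with the same replicate number deviated together (correlations 0.11 to 0.418, each above 0.1), while male ones did not all do so (-0.249 to 0.189). The female pairs were taken from the data, not from the labels, and the main test does not use them. Correlations between differently numbered libraries were not computed, so the pairing has no baseline. The genes, lists and tests were chosen with earlier results of these data known. Named genes are Mrpl15, called genes up to 12 per genotype comparison and 5 per sex comparison, the 3 largest values in each direction, and the 3 highest and lowest by FPKM, with up to 3 called genes of each other list. Promoters, sequences and transcript lengths came from RefSeq (GRCm38.p6) and GENCODE M21. The variant is a change within the coding sequence, so gene counts cannot check the genotype.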

Additional observations from a re-analysis of the deposited data

Results flagged for a closer look

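In 6 of the 116 groups examined, 1 library lay far from the others of its group, where chance gives about 1 in 20, or 5.8 groups. Mrpl1 stood at 33.6 CPM in female S64F/+ 3, with the other libraries of the group at 20.9 to 23.8. Mrpl33 stood at 34.1 CPM in the same library, with the others at 18.9 to 22.9. Mrpl35 stood at 9.39 CPM in male S64F/+ 2, with the others at 10.2 to 10.3. Mrpl16 stood at 10.6 CPM in female WT 2, with the others at 12.1 to 12.6. Mrps10 stood at 13.8 CPM in male WT 1, with the others at 12.4 to 12.6, and Mrps18b at 19.2 CPM in that library, with the others at 15.8 to 16.1.

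The genotype effect differed between the sexes, by the test of the difference itself, for 4 genes. The male minus female differences were -0.691 for Mrps33, -0.662 for Mrpl36, -0.744 for Mrpl41 and -0.35 for Mrps34 on the log2 scale.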

How the results depend on the processing

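Shares of all genes stand in brackets. With library-size scaling, 5 MRP genes were called higher (23.1%) and 0 lower (3.63%) in males (median 0.0972), 24 higher averaged over the sexes (24.7%), 0 lower in the difference of the effects (0.163%; median -0.109), 6 lower in males among S64F/+ islets (2.04%; median -0.0544) and 0 higher in males among WT islets (0.398%). With no filter the difference had 1 call (0.340%), S64F/+ males 11 lower (2.62%) and 0 higher (3.25%), and WT males 1 higher (0.563%). With only the groups compared, the counts were 1 higher (19.2%) and 6 lower (16.7%) in males, 5 higher in females (7.17%), 0 higher in S64F/+ males (6.86%) and 1 higher in WT males (1.04%). DESeq2 called 14 in the difference (4.47%) and 4 in WT males (3.90%). Without female S64F/+ 3, 4 and 5 the counts were 1 higher in males (15.8%), 0 higher in females (3.74%; median 0.0457), 0 higher (15.5%) and 1 lower (13.8%) on average, 0 lower in the difference (0.0157%; median -0.191), and 0 higher (0.612%) and 0 lower (0.403%) in S64F/+ males (median -0.0948). With the length offset they were 1 higher in males (18.4%), 11 higher in females (10.1%; median 0.0739), 1 lower on average (14.1%), 0 lower in the difference (0.474%; median -0.137) and 3 higher (8.23%) and 7 lower (3.87%) in S64F/+ males (median -0.0824). Mrps34 turned its sign there, to -0.0345 in females and 0.00353 in the difference. Of the 35 calls of named genes, 21 were lost with the length offset, 14 with library-size scaling, 12 with no filter and 32 without the 3 libraries. A minimum count of 50 and the DESeq2 test lost none, and DESeq2 size factors in the edgeR fit lost 1. The remaining settings could not retest all 35. The fits to only the groups compared lost 12 but hold no average or difference. The replicate block lost 3 but holds no comparison of the sexes. The cause of these changes was not tested.

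Leaving out 1 library at a time gave ranges of 0 to 1 higher (1 without female S64F/+ 4) and 0 to 3 lower in males, with 2 without male WT 1 or female WT 4, 3 without male WT 2, 0 without male WT 3, male WT 4 or male S64F/+ 4, and a median of -0.168 to -0.0955. In females the range was 6 to 39 higher and 0 to 0 lower (median 0.197 to 0.304), and on average 2 to 8 higher and 0 to 1 lower (1 without female S64F/+ 3; median 0.026 to 0.0783). In the difference it was 0 to 0 higher and 0 to 26 lower (median -0.423 to -0.315). Between the sexes it was 0 to 1 higher and 6 to 34 lower in S64F/+ islets (median -0.282 to -0.211), and 1 to 3 higher and 0 to 0 lower in WT islets (median 0.0497 to 0.15). Shares of all genes are not given for any leave-out of 1 library, here or above.

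With the replicate number as a block, 0 MRP genes were higher (15.9% of all genes) and 1 lower (11.9%) in males. In females 17 were higher (9.97%), 15 of them among the 17 without the block. On average 5 were higher (18.5%), and 6 were lower in the difference (1.60%). Beside Mrpl20 (0.29) and Mrps34 (0.193 in females, -0.345 in the difference) the block changed no call of a named gene in the comparisons it could fit. No paired analysis was possible for males against females because the numbers lie within a sex. Mrpl53, at 0.0218 CPM per kilobase, did not pass the filter on low counts.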
